A study of Mus musculus with 26 samples.

Results

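NF-kB is a family of dimeric transcription factors that lymphocytes keep in the cytoplasm in complex with inhibitors until a receptor signal releases them. The messenger RNAs of 9 of its genes were followed in S49 cells, a mouse T-lymphoma line: the subunit genes Rela, Rel, Relb, Nfkb1 and Nfkb2, the inhibitor genes Nfkbia, Nfkbib and Nfkbie, and Tnfaip3, which encodes the ubiquitin-editing enzyme A20. All probe sets whose only annotated symbol was one of these names were taken, whatever their level. This gave 12 of the 22626 probe sets on the arrays, for 8 of the 9 genes among 12393 named genes. Nfkbia had 4 of them, Nfkb2 had 2 and the other 6 genes had 1 each, and Nfkb1 was not analysed here.

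The study exposed wild-type (WT) and Kin- S49 cells to 8-CPT-cAMP, a membrane-permeant analog of cyclic AMP, at 100 µM. Per the labels, each line was measured at 0 h, without the analog, on 4 arrays, and at 2, 6 and 24 h with it on 3 arrays each, giving 8 groups and 26 arrays of total RNA. Kin- is a variant of the same line known for its lack of protein kinase A activity, so only WT cells have the kinase through which cyclic AMP chiefly acts. The labels do not state whether the arrays within a group are of separate cultures. The p-values thus measure the spread between arrays, which may be technical, and each genotype is represented by 1 line.

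Levels are given in square-root units, the square root of the deposited score. This scale is treated as logarithmic, but whether 1 unit is a doubling is not known, so no fold change is given. A probe set counted as changed where its adjusted p was under 0.05 in limma, adjusted over all 22626 probe sets. All WT times were compared with the same 4 arrays at 0 h. Arrays numbered 1 to 14 and 16 to 47 stood apart from each other within every group, and each treated group has only 1 array numbered 1 to 14. Changes of the members within each of these sets are therefore given beside the pooled ones, and those of list genes only in some cases. In arrays 1 to 14 alone a treated group has no spread of its own, so p-values there rest on untreated arrays. For that set only sizes are given, apart from the counts of calls at the end, which carry this limit.

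In the canonical branch of the pathway, receptors of antigen, cytokines or microbial products activate the IkB kinase complex. The kinase marks IkB proteins such as IkBα for destruction and so frees dimers that contain Rela or Rel. In the alternative branch the Nfkb2 precursor is trimmed to a subunit that pairs with Relb. Nfkbia, Nfkb2, Rel, Relb and Tnfaip3 are themselves known targets of NF-kB, so their transcripts can rise with its activity as well as feed back on it.

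The promoters of the 4 genes whose transcripts changed at 2 h are shown first, since these genes went in opposite directions. Each line gives the 250 bases before the annotated start from RefSeq (GRCm38.p6), 5′ to 3′ on the gene's strand. Capitals mark matches to the degenerate kB consensus and to TGACG, the core of the cyclic AMP response element TGACGTCA, on either strand. Windows of 300 bases were searched, these 250 and the first 50 of the transcript.
Nfkbia promoter, chr12:55492648-55492897, minus strand: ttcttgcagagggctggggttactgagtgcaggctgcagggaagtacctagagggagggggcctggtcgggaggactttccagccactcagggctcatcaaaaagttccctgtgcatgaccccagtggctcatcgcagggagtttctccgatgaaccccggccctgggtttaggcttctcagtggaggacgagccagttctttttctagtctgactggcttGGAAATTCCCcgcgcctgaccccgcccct
Nfkb2 promoter, chr19:46304487-46304736, plus strand: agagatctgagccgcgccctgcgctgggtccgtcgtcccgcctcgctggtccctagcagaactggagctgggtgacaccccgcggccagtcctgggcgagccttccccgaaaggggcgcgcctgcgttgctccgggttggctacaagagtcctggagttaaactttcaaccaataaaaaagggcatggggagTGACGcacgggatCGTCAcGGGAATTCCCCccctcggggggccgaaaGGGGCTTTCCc
Rel promoter, chr11:23770970-23771219, minus strand: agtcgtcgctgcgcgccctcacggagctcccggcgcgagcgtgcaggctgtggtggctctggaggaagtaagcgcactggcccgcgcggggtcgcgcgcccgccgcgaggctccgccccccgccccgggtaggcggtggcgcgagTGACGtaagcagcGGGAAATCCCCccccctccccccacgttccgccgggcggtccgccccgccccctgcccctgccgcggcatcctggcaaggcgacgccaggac
Tnfaip3 promoter, chr10:19015411-19015660, minus strand: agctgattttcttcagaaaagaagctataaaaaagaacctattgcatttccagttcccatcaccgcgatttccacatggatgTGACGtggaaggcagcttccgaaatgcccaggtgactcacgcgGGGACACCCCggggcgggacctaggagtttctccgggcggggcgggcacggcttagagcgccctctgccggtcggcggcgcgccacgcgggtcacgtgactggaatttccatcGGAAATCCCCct
The Nfkbia window held 1 kB match, GGAAATTCCC, between bases −29 and −20, and no TGACG. The Nfkb2 window held 3 kB matches, a pair of which overlap at bases −39 to −29, and 2 TGACG matches, at −58 and −45. The Rel window held 2 overlapping kB matches at −92 to −82 and 1 TGACG at −105. The Tnfaip3 window held 2 kB matches, GGGACACCCC at −125 and GGAAATCCCC at −12, with 1 TGACG at −168. None of these 4 windows held the full TGACGTCA. Over all 32851 promoter windows of this length, 4.5% held a kB match, 20.8% held TGACG and 1.79% held TGACGTCA. Other annotated starts differed: a second Tnfaip3 window held neither motif. A further Nfkb2 window held 2 kB matches and 1 TGACG, and another held 1 kB match and no TGACG. Nfkbie had 1 kB match, Nfkbib had 1 TGACG and Rela had none of the motifs, while Relb is named only. A match of letters is a description and not a binding site.

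After 2 h in WT cells, 6 of the 12 probe sets had changed. The transcript of Nfkbia, which encodes IkBα, fell on 3 of its 4 probe sets, while those of Nfkb2, Rel and Tnfaip3 rose. Among all probe sets 14.4% changed at this time, 7.11% of them higher and 7.25% lower, against 3 higher and 3 lower among the 12. These 12 count Nfkbia more than once. By the brightest probe set of each gene 3 of 8 genes had changed, 2 higher and 1 lower. By 6 h Nfkbia no longer differed detectably from untreated cells, and by 24 h it stood above them on 2 probe sets. Nfkb2 ended below its untreated level, and Tnfaip3 was higher at all 3 times. Rela, Nfkbib and the remaining probe sets of Nfkb2 and Nfkbia did not pass at any time against 0 h, nor did Relb or Nfkbie.

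**Figure D1:**
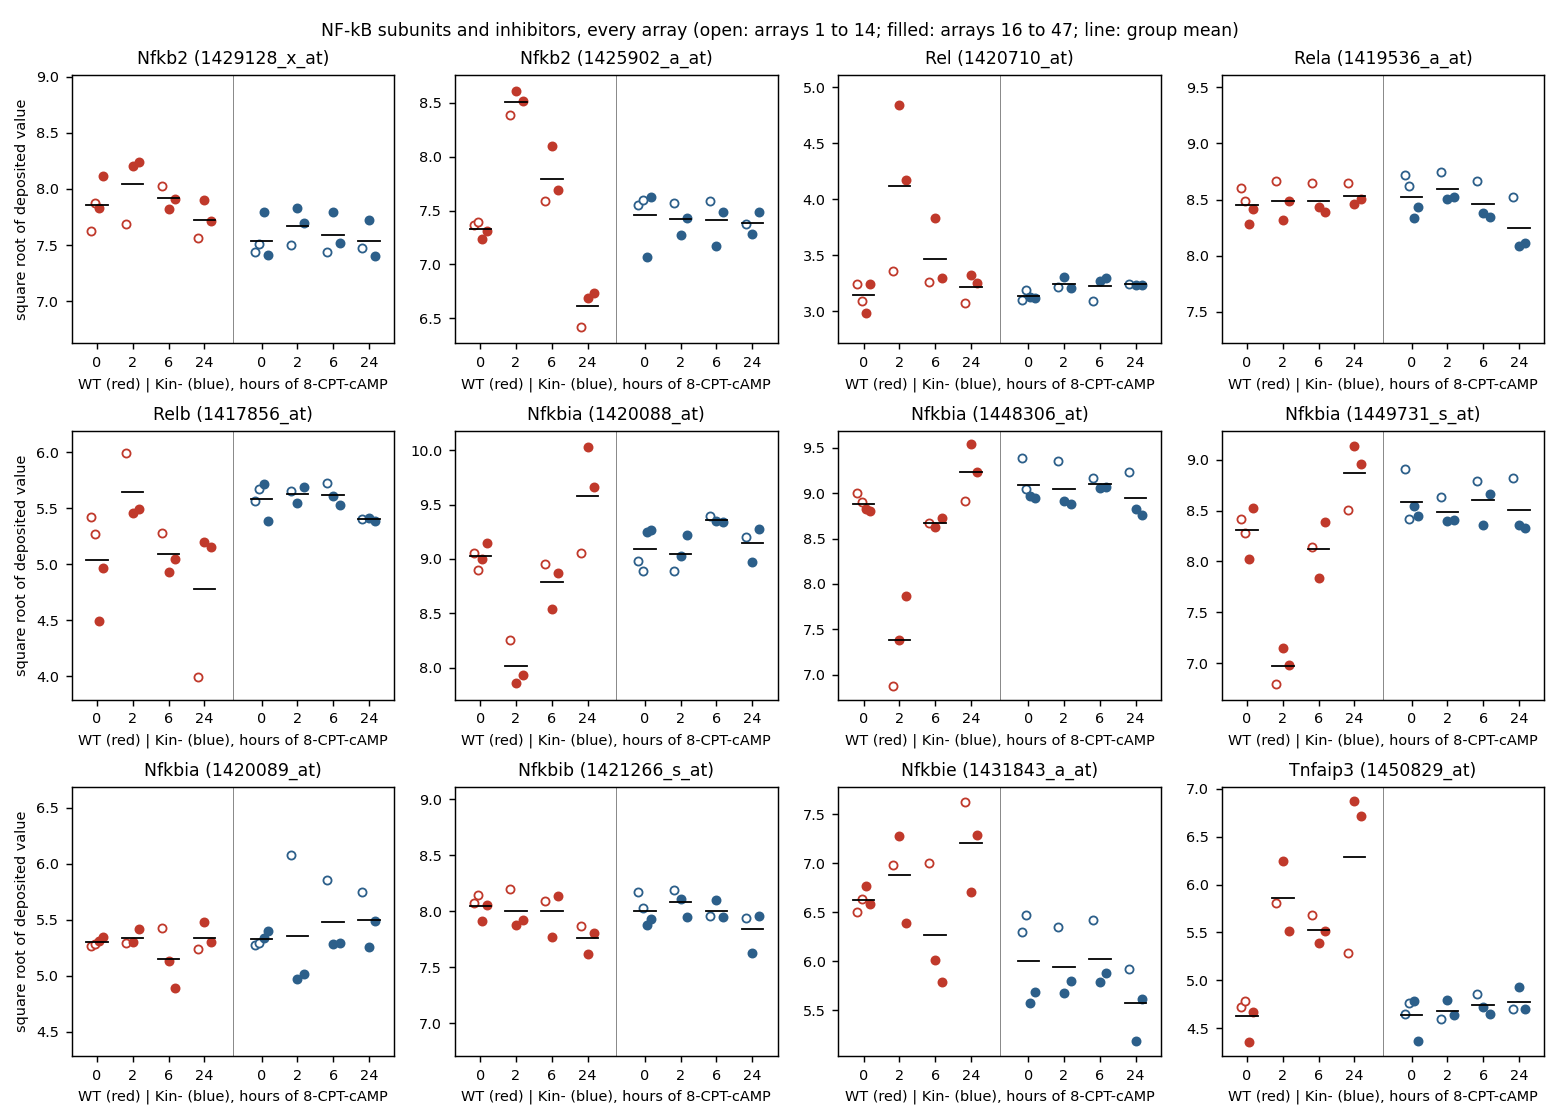
Level of each of the 12 probe sets on every array, in square-root units (vertical axes, which differ between panels), against hours of 8-CPT-cAMP, with WT cells in red on the left and Kin- cells in blue on the right of each panel. Each point is 1 array, open for arrays 1 to 14 and filled for arrays 16 to 47, and short lines are group means. The 3 WT arrays at 2 h lie below every other WT array for the probe sets of Nfkbia that changed, and above them for Nfkb2 1425902_a_at, while Kin- arrays keep to a narrow band.

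Nfkbia encodes IkBα, the inhibitor that is quickly lost and remade when NF-kB is activated, and its gene lies at chr12:55489409-55492647. On its brightest probe set, 1420088_at, WT arrays read 9.06, 8.90, 9.0 and 9.15 at 0 h, then 8.26, 7.85 and 7.93 at 2 h. They read 8.95, 8.54 and 8.87 at 6 h and 9.05, 10.03 and 9.66 at 24 h. The arrays at 2 h were thus the lowest of the series, those at 6 h were back near the untreated ones, and at 24 h the higher pair came from arrays numbered 19 and 39. The change at 2 h was −1.01 ± 0.17 (SE; adjusted p = 0.000168), with group means of 8.01 ± 0.21 at 2 h (SD, n = 3) and 9.02 ± 0.11 at 0 h (SD, n = 4).

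Probe set 1448306_at of Nfkbia gave a larger fall at 2 h. WT arrays read 6.88, 7.39 and 7.87 at 2 h, against 9.01, 8.91, 8.82 and 8.81 at 0 h, a change of −1.51 ± 0.18 (adjusted p = 4.25e-06). On the probe set 1449731_s_at they read 6.79, 7.15 and 6.98 at 2 h, against 8.41, 8.27, 8.02 and 8.52 at 0 h, a change of −1.33 ± 0.17 (adjusted p = 1.09e-05). The groups at 2 h and 0 h did not overlap on 7 of the 12 probe sets, these 3 among them. The share over all probe sets was not taken, so this is only a description. Within arrays 16 to 47 the 3 changes were −1.18, −1.19 and −1.21, all past the threshold. Within arrays 1 to 14, where 1 treated array was compared, they were −0.72, −2.08 and −1.55.

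Nfkbia returned between 2 and 6 h. Successive times were compared to ask when each transcript turned. From 2 to 6 h 4 of the 12 probe sets changed, 3 of them of Nfkbia, against 13.0% of all probe sets. By the brightest probe set of each gene 1 of 8 genes changed, which is near that share. The 3 probe sets rose by 0.77 ± 0.18, 1.30 ± 0.19 and 1.14 ± 0.19 (adjusted p = 0.00574, 0.000134 and 0.000295). At 6 h they differed from 0 h by −0.24, −0.21 and −0.19, with adjusted p from 0.445 to 0.620. At 24 h the changes against 0 h were 0.56 ± 0.17 on 1420088_at (adjusted p = 0.0122), 0.56 ± 0.17 on 1449731_s_at (adjusted p = 0.0170) and 0.34 ± 0.18 on 1448306_at, which did not pass (adjusted p = 0.193).

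The late rise of Nfkbia rests on 2 of the 3 arrays. On 1420088_at arrays 19 and 39 stood at 10.03 and 9.66, whereas array 4, at 9.05, lay within the untreated range. Without array 19, or without array 39, neither probe set passed at 24 h, and 1449731_s_at was also lost without the 0 h array 16. Within arrays 16 to 47 the 3 rises were 0.78, 0.57 and 0.77 and all passed. Within arrays 1 to 14 the differences were 0.08, −0.04 and 0.16. From 6 to 24 h, 1420088_at and 1449731_s_at rose by 0.79 ± 0.18 and 0.75 ± 0.19 (adjusted p = 0.00257 and 0.00620). The third, 1448306_at, differed by 0.56 (adjusted p = 0.0541) and passed with a term for the array set (adjusted p = 0.0481). In order of WT level, 24 h lay above 0 h, 0 h above 6 h and 6 h above 2 h, and the neighbours 0 h and 6 h did not differ beyond their spread.

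The fourth Nfkbia probe set, 1420089_at, did not follow the others. It stood near the median of all probe sets, between 4.89 and 5.48 on WT arrays, and its change at 2 h was 0.04 ± 0.20 (adjusted p = 0.918). Within arrays 16 to 47 its difference at 6 h was −0.31 and passed (adjusted p = 0.0460). Over the 26 arrays the 3 moving probe sets correlated with each other at Pearson's r of 0.81 to 0.95, and with the fourth at 0.14 to 0.22, a description over arrays that share groups and array sets. Which exons the probe sets cover is not given in the sources used here.

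Nfkb2 encodes the precursor of the alternative branch, and its gene lies at chr19:46300994-46312400. On probe set 1425902_a_at WT arrays read 7.37, 7.40, 7.24 and 7.31 at 0 h and 8.38, 8.61 and 8.52 at 2 h. They read 7.59, 8.10 and 7.69 at 6 h and 6.41, 6.69 and 6.74 at 24 h. No array of any time overlapped with those of another, so the transcript was highest at 2 h, then 6 h, then 0 h, and lowest at 24 h.

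The changes of Nfkb2 against 0 h on this probe set were 1.18 ± 0.14 at 2 h (SE; adjusted p = 2.74e-06), 0.47 ± 0.14 at 6 h (adjusted p = 0.0185) and −0.71 ± 0.14 at 24 h (adjusted p = 0.000277). It fell by 0.71 ± 0.15 from 2 to 6 h (adjusted p = 0.00252) and by 1.18 ± 0.15 from 6 to 24 h (adjusted p = 5.48e-06). Group means were 7.33 ± 0.07 at 0 h (SD, n = 4), and 8.51 ± 0.12, 7.79 ± 0.27 and 6.61 ± 0.17 at 2, 6 and 24 h (SD, n = 3 each). Within arrays 16 to 47 the changes at 2, 6 and 24 h were 1.29, 0.62 and −0.56. Within arrays 1 to 14 they were 1.00, 0.21 and −0.97. The call at 6 h was lost without array 18 (adjusted p = 0.175).

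The other Nfkb2 probe set, 1429128_x_at, was the brighter of the pair and did not pass at any time. Its suffix marks probes that may bind other transcripts too. It differed from 0 h by 0.19 ± 0.14 at 2 h, 0.06 ± 0.14 at 6 h and −0.13 ± 0.14 at 24 h (adjusted p = 0.457, 0.846 and 0.654). The 2 probe sets therefore disagree, and the course given above is that of 1425902_a_at.

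Rel encodes c-Rel, the subunit most tied to lymphocyte activation, at chr11:23736847-23770969. Its probe set was dim, at percentile 29.2 of all probe sets by mean level. WT arrays read 3.36, 4.84 and 4.17 at 2 h, against 3.25, 3.09, 2.99 and 3.25 at 0 h. Arrays 17 and 37 were clearly raised, and array 2 lay only just above the highest untreated array. The rise at 2 h was 0.98 ± 0.20 (adjusted p = 0.00179). It was 1.39 within arrays 16 to 47 (adjusted p = 0.00111) but 0.19 within arrays 1 to 14. At 6 h Rel read 3.27, 3.83 and 3.30 and at 24 h 3.08, 3.33 and 3.25, and the differences from 0 h, 0.32 ± 0.20 and 0.08 ± 0.20, did not pass. In order of mean level Rel was highest at 2 h, then 6 h, 24 h and 0 h, and over all arrays no tested neighbours in this order passed (−0.66 ± 0.22 from 2 to 6 h, adjusted p = 0.0519, and −0.25 from 6 to 24 h, adjusted p = 0.604). With a term for the array set the fall from 2 to 6 h passed at −0.66 (adjusted p = 0.0265), and it was −0.94 within arrays 16 to 47 (adjusted p = 0.0101) and −0.095 within arrays 1 to 14.

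Relb and Rela encode the partner of processed Nfkb2 and the main activating subunit. Relb read 5.99, 5.46 and 5.49 in WT cells at 2 h, against 5.43, 5.27, 4.49 and 4.97 at 0 h. These groups did not overlap, but the difference of 0.61 ± 0.23 did not pass (adjusted p = 0.0871); within arrays 16 to 47 it was 0.75 and passed (adjusted p = 0.00533). At 24 h array 4 read 4.00 for Relb, and arrays 19 and 39 read 5.20 and 5.15, so the set of arrays decides its sign. The difference was −0.26 ± 0.23 over all arrays (adjusted p = 0.547) and 0.45 within arrays 16 to 47 (adjusted p = 0.0359). Within arrays 1 to 14, where array 4 was the only WT array at 24 h, it was −1.35. Rela stayed between 8.28 and 8.66 on all 13 WT arrays, and its differences from 0 h were 0.04, 0.04 and 0.09, each with an SE of 0.12.

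Nfkbib and Nfkbie encode the inhibitors IkBβ and IkBε. Nfkbib lay between 7.62 and 8.20 on all WT arrays. At 24 h it read 7.87, 7.62 and 7.80, against 8.08, 8.14, 7.91 and 8.06 at 0 h, without overlap, and its difference of −0.28 ± 0.11 did not pass (adjusted p = 0.0536). With a term for the array set it was −0.26 and passed (adjusted p = 0.0301), as it did with runs of array numbers as a random block (−0.27, adjusted p = 0.0202). Nfkbie was scattered, with 7.00, 6.01 and 5.79 at 6 h and 7.63, 6.71 and 7.29 at 24 h. It rose from 6 to 24 h by 0.94 ± 0.32 (adjusted p = 0.0461), a call lost without array 18, 38, 4 or 39, and it did not pass at any time against 0 h, where it read 6.50 to 6.76. Its differences also went with the array set. At 6 h they were −0.78 within arrays 16 to 47 and 0.44 within arrays 1 to 14, and at 24 h 0.32 and 1.06. Neither of those within arrays 16 to 47 passed. With a term for the array set its difference at 24 h was 0.67 and passed (adjusted p = 0.0194).

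Tnfaip3 encodes A20, which removes ubiquitin chains from signalling proteins and so restrains the IkB kinase, at chr10:19000910-19015410. WT arrays read 4.72, 4.78, 4.36 and 4.67 at 0 h and 5.81, 6.25 and 5.52 at 2 h. They read 5.68, 5.39 and 5.52 at 6 h and 5.29, 6.87 and 6.71 at 24 h. Every treated WT array lay above every untreated one, and at 24 h array 4 was well below the other pair. The rises were 1.22 ± 0.25 at 2 h (adjusted p = 0.00148), 0.89 ± 0.25 at 6 h (adjusted p = 0.0127) and 1.66 ± 0.25 at 24 h (adjusted p = 1.72e-05).

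Within arrays 16 to 47 the rises of Tnfaip3 were 1.37, 0.94 and 2.28 and all passed. Within arrays 1 to 14 they were 1.06, 0.93 and 0.53. Without array 3 the rise at 6 h had an adjusted p of 0.0516. The mean was highest at 24 h, then 2 h, 6 h and 0 h. The levels at 2 and 6 h did not differ beyond their spread (−0.33, adjusted p = 0.402), nor did those at 24 and 6 h over all arrays (0.76 ± 0.27, adjusted p = 0.0541). With a term for the array set this last difference passed (0.76, adjusted p = 0.0462). It was 1.34 within arrays 16 to 47 (adjusted p = 0.00115) and −0.39 within arrays 1 to 14.

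**Figure D2:**
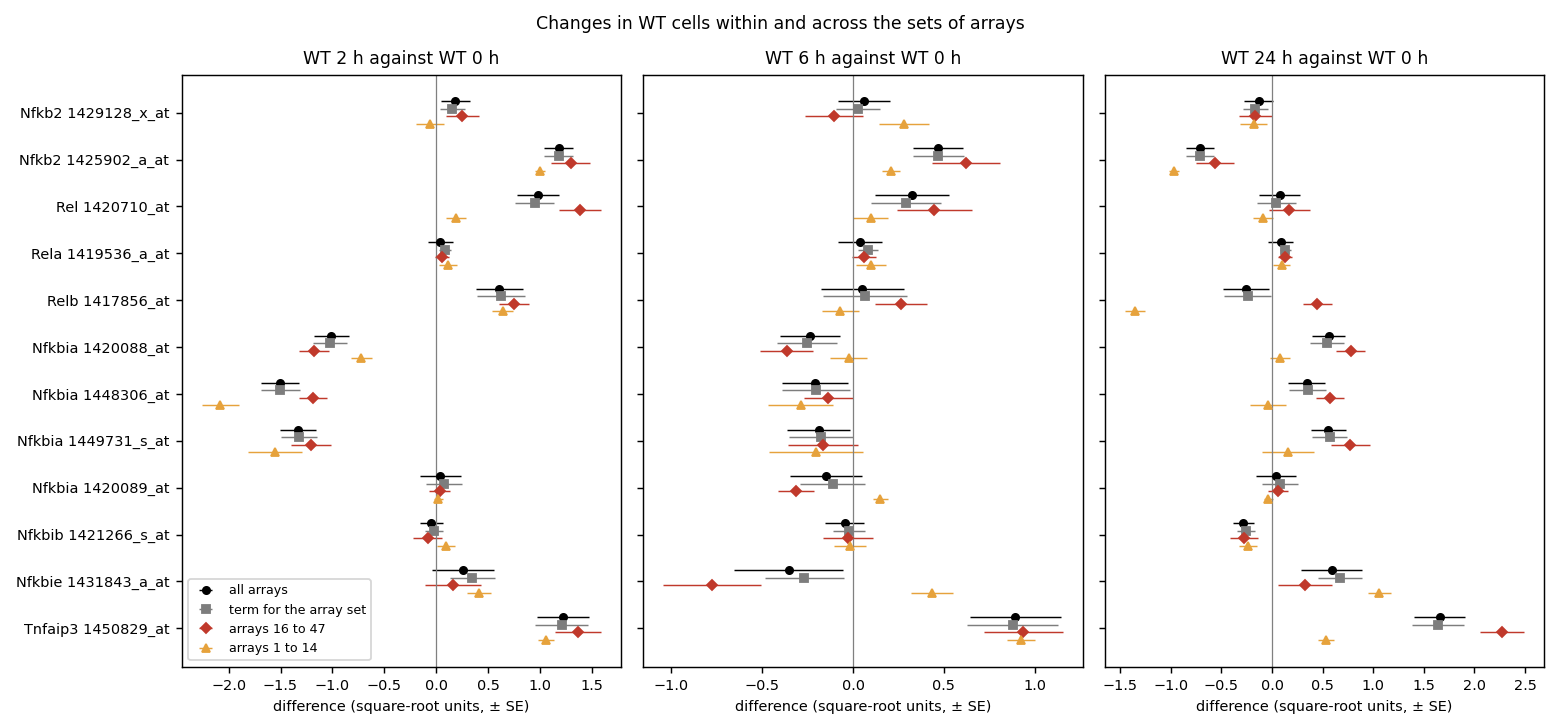
Difference from WT 0 h in square-root units (horizontal axes) for each probe set at 2, 6 and 24 h, with bars of 1 SE. Black circles use all arrays, grey squares add a term for the array set, red diamonds use arrays 16 to 47 and orange triangles use arrays 1 to 14. Nfkbia at 2 h keeps its sign in all of them, whereas Relb at 24 h is 0.45 in arrays 16 to 47 and −1.35 in arrays 1 to 14.

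At 6 h 2 of the 12 probe sets differed from 0 h, both higher, against 19.6% of all probe sets, 9.52% higher and 10.1% lower. At 24 h 4 of the 12 differed, 3 higher and 1 lower, against 30.0% of all probe sets, 14.4% higher and 15.6% lower. From 6 to 24 h 4 of the 12 changed, against 17.8% of all, and by brightest probe set 2 of the 8 genes. The shares of members at 6 and 24 h were thus near those of all probe sets. The median difference of the 12 was 0.11, −0.0034 and 0.081 at 2, 6 and 24 h, beside 0.051, −0.031 and −0.0074 over all probe sets. Because RNA of whole cultures was measured, fewer expressing cells and less RNA per cell cannot be told apart.

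Kin- cells were compared with their own untreated arrays in the same way, to ask which responses need the kinase. None of the 12 probe sets passed in limma at 2, 6 or 24 h, against 0% of all 22626 probe sets at each time. At an unadjusted p under 0.05 there were 0, 0 and 1 of the 12, beside 489, 429 and 491 of all. The member with the unadjusted p at 24 h was Rela, at −0.28 ± 0.12 (unadjusted p = 0.0303, adjusted p = 1.00). Over all 13 Kin- arrays Nfkbia 1420088_at stayed between 8.88 and 9.40, 1448306_at between 8.76 and 9.38 and 1449731_s_at between 8.33 and 8.91. Nfkb2 1425902_a_at stayed between 7.06 and 7.63, Tnfaip3 between 4.37 and 4.93 and Rel between 3.09 and 3.31. On none of these 6 probe sets did a Kin- array reach the levels that WT arrays had at 2 h. They were picked because they changed in WT cells at 2 h, so this separation is partly built in and is only a description. For Rel it was narrow, with 3.31 as the highest Kin- array and 3.36 as the lowest WT array at 2 h. Relb, which was not called, overlapped at 2 h, with 5.54 to 5.69 in Kin- and 5.46 to 5.99 in WT cells.

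**Figure D3:**
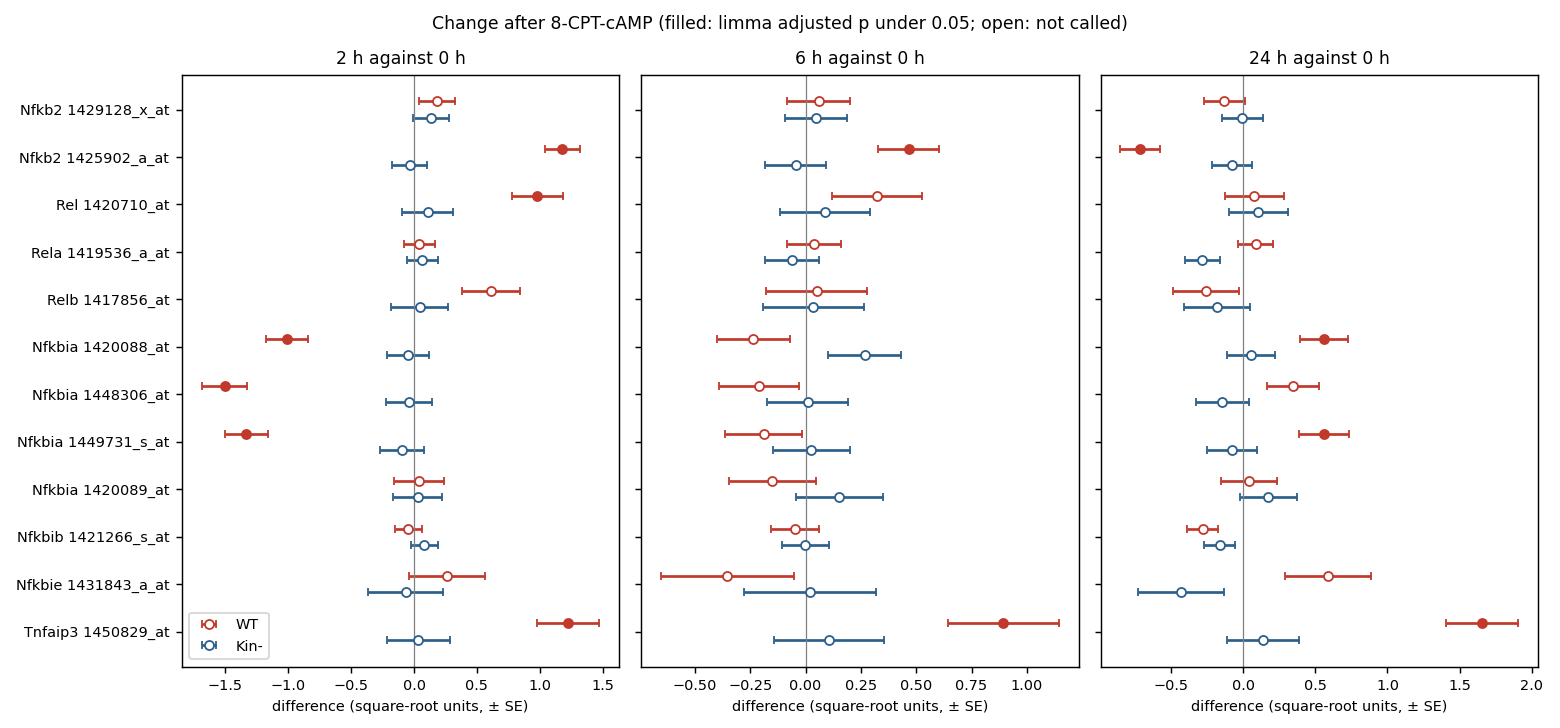
Difference from 0 h of the same line at 2, 6 and 24 h for each probe set, in square-root units (horizontal axes, which differ between panels), with bars of 1 SE, WT in red above Kin- in blue. Filled points passed the threshold and open ones did not. All filled points are WT: 6 at 2 h, 2 at 6 h and 4 at 24 h.

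The difference between the responses of WT and Kin- cells was tested directly. At 2 h it passed for 5 of the 12 probe sets, against 6.92% of all, and by brightest probe set for 2 of the 8 genes. Nfkb2 1425902_a_at gave 1.21 ± 0.19 (adjusted p = 0.000314), and the Nfkbia probe sets 1420088_at, 1448306_at and 1449731_s_at gave −0.96 ± 0.23, −1.47 ± 0.26 and −1.23 ± 0.25 (adjusted p = 0.0133, 0.000782 and 0.00254). Tnfaip3 gave 1.19 ± 0.35 (adjusted p = 0.0456), a call that held in only 2 of the 14 fits that left out an array of these groups. Rel, at 0.87 ± 0.29, did not pass (adjusted p = 0.0798), although its rise in WT cells did. With the term for the array set this difference passed at the same size (adjusted p = 0.0405). It was 1.25 within arrays 16 to 47 (adjusted p = 0.0237) and 0.13 within arrays 1 to 14.

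At 6 h the difference passed for 0 of the 12, against 10.8% of all. At an unadjusted p under 0.05 there were 3 of the 12, beside 19.9% of all. Among these Nfkb2 1425902_a_at gave 0.51 (adjusted p = 0.112), which passed with runs of array numbers as a random block (adjusted p = 0.0285). At 24 h it passed for 2, against 21.5% of all: Nfkb2 1425902_a_at at −0.64 ± 0.19 (adjusted p = 0.0207) and Tnfaip3 at 1.52 ± 0.35 (adjusted p = 0.00282). The Nfkb2 call was lost without WT array 4 or Kin- array 47 and within arrays 16 to 47 (−0.60, adjusted p = 0.139). Over all arrays Rela gave 0.37 (adjusted p = 0.159) and Nfkbie 1.02 (adjusted p = 0.104). With the term for the array set both passed, at the same sizes (adjusted p = 0.000895 and 0.0158). The Rela difference then lay more in Kin- cells, at −0.24 from their 0 h, than in WT cells, at 0.13. Neither change passed alone (adjusted p = 0.900 and 0.0817), so this is not a call of a rise in WT cells. Within arrays 16 to 47 the difference between the lines was 0.41 for Rela and passed (adjusted p = 0.00955). For Nfkbie it was 0.55 and did not (adjusted p = 0.342). The late rise of Nfkbia in WT cells had no such call, its 3 probe sets giving 0.51, 0.49 and 0.64 (adjusted p = 0.157, 0.230 and 0.0761). It did pass on all 3 within arrays 16 to 47.

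Untreated cells of both lines were compared to see whether the genes differed before the analog was added. None of the 12 probe sets passed between Kin- and WT cells at 0 h in limma, against 3.01% of all. At an unadjusted p under 0.05 there were 3 of the 12, beside 11.5% of all. Nfkbie was 6.01 ± 0.44 in Kin- and 6.62 ± 0.11 in WT cells (SD, n = 4 each), a difference of −0.61 ± 0.28 (adjusted p = 0.373). Relb was 5.59 ± 0.15 in Kin- and 5.04 ± 0.41 in WT cells, a difference of 0.55 ± 0.21 (adjusted p = 0.236), and 0.82 within arrays 16 to 47, where it passed (adjusted p = 0.00892). Nfkb2 1429128_x_at was 7.54 ± 0.18 in Kin- and 7.86 ± 0.20 in WT cells (adjusted p = 0.288).

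Further regulators of the pathway were taken as 5 lists of 123 genes in all, each gene by its brightest probe set. Of the atypical IkB proteins and partners of A20, 10 of 13 were measured, and 3 had risen at 2 h, 2 at 6 h and 5 at 24 h with none lower. These are 30%, 20% and 50% of the list, beside the 14.4%, 19.6% and 30.0% of all probe sets given above, so the share at 6 h was near that of all. Nfkbiz, which encodes a nuclear IkB, was 6.03 ± 0.65 at 2 h, against 4.96 ± 0.28 at 0 h, a rise of 1.07 ± 0.27 (adjusted p = 0.00844) that was lost without array 17 or 37. This rise was 1.26 within arrays 16 to 47 and 0.51 within arrays 1 to 14. At 24 h Nfkbiz had risen by 1.46 ± 0.27 (adjusted p = 0.000174). Tnip1, an A20-binding adaptor, rose by 0.50, 0.58 and 0.94 at 2, 6 and 24 h. Tax1bp1, another A20 adaptor, rose by 0.51 ± 0.12 at 6 h. Rnf11, a ubiquitin ligase of the A20 complex, rose by 1.38 ± 0.46 at 24 h (adjusted p = 0.0251), a call that held in 3 of 7 fits leaving out an array. The median of the list was 0.13, 0.29 and 0.37 at the 3 times.

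Of the IkB kinase complex and its upstream kinases 12 of 18 were measured. In limma 0 passed at 2 or 6 h, beside 14.4% and 19.6% of all probe sets. At 24 h 3 had risen, which is 25% of the list and near the 30.0% of all probe sets. These were Tab2 and Tab3, which bind ubiquitin chains and the kinase TAK1, at 0.50 ± 0.12 and 0.59 ± 0.21, the call for Tab3 holding in 3 of 7 fits leaving out an array, and Ikbkb, which encodes a catalytic subunit of the complex, at 0.29. Ikbkb lies outside the naming rule and is given because so few passed. With a term for the array set 4 of the 12 passed at 2 h and 2 at 6 h. The share of all probe sets with this term is not given here, so these counts are only a description. The median of the list was 0.19, 0.081 and 0.20.

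Among receptors and adaptors that feed into NF-kB 26 of 29 were measured. At 2 h 5 were higher and 1 lower, at 6 h 4 and 1, and at 24 h 10 and 1. Their shares of 23.1%, 19.2% and 42.3% stand beside 14.4%, 19.6% and 30.0% of all probe sets, so that at 6 h was near the share of all. Tnfrsf18, the costimulatory receptor GITR, was 6.19 ± 0.23 at 0 h, 9.81 ± 0.26 at 2 h, 10.69 ± 0.35 at 6 h and 11.43 ± 0.90 at 24 h. Its rises of 3.61, 4.49 and 5.24 exceeded those of every other measured gene of the 5 lists at the same time. Prkcq, the protein kinase C isoform that links the T-cell receptor to NF-kB, rose by 2.43 ± 0.32 at 6 h and 3.11 ± 0.32 at 24 h. Cd28, the main costimulatory receptor of T cells, rose by 1.31 ± 0.33 at 2 h. The falls named by rule were Traf5 at 2 h (−0.73 ± 0.16), Prkcb at 6 h (−1.33 ± 0.19) and Traf2 at 24 h (−0.57 ± 0.11), a protein kinase C isoform and a pair of receptor adaptors. The median of the list was 0.070, 0.012 and 0.13.

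Of the ubiquitin ligases and nuclear cofactors 16 of 20 were measured, and 2 were higher at 2 h, 2 higher and 1 lower at 6 h, and 4 higher and 2 lower at 24 h. These shares, 12.5%, 18.8% and 37.5%, were near the 14.4%, 19.6% and 30.0% of all probe sets. Peli1, a ubiquitin ligase that in mouse T cells restrains Rel, rose by 1.53 ± 0.22, 1.43 ± 0.22 and 1.97 ± 0.22 at the 3 times. Pdlim2, a nuclear ligase that directs Rela to destruction, rose by 0.93 ± 0.26 at 6 h, a call lost without array 3, and by 1.36 ± 0.26 at 24 h. Sirt1, a deacetylase of Rela, rose by 0.51 ± 0.13 at 2 h and fell by 0.41 ± 0.13 at 24 h. The late call held in 3 of 7 fits leaving out an array. Rbck1, a subunit of the linear ubiquitin ligase, fell by 0.59 ± 0.09 at 6 h, and Ube2n, a ubiquitin-conjugating enzyme, fell by 0.56 ± 0.17 at 24 h, a call lost without array 16 or 4. The median of the list was 0.062, 0.15 and −0.074.

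Known NF-kB target genes went in both directions, with 42 of 43 measured. At 2 h 5 were higher and 1 lower, at 6 h 10 and 3, and at 24 h 12 and 3. The share at 2 h, 14.3%, was that of all probe sets, 14.4%, and those at 6 and 24 h were 31.0% and 35.7%, beside 19.6% and 30.0% of all. Ifng, which encodes interferon gamma, was 6.14 ± 2.14 at 2 h, against 2.66 ± 0.01 at 0 h. The rise was 3.48 ± 0.80 (adjusted p = 0.00418), and it was 4.66 within arrays 16 to 47 and 1.11 within arrays 1 to 14. At 6 h Ifng was 2.49 higher, but only 1 of 7 fits leaving out an array kept this call, and within arrays 1 to 14 the difference was −0.029. Irf1, an interferon-related transcription factor, rose by 2.45 ± 0.30 at 2 h. The chemokine receptor gene Ccr7 rose by 2.73 ± 0.21 at 6 h and 3.32 ± 0.21 at 24 h. Junb, a subunit of AP-1, rose by 1.90 ± 0.34 at 24 h. The Junb rise was 2.55 within arrays 16 to 47 and 0.64 within arrays 1 to 14. Among those that fell, Myc changed by −2.46, −2.14 and −2.12 at the 3 times, Gadd45b by −0.90 ± 0.25 at 6 h, a call lost without array 18, and the mitochondrial superoxide dismutase gene Sod2 by −1.41 ± 0.09 at 24 h. The median of the list was 0.088, 0.032 and 0.076, and 36 of its 42 genes did not pass at 2 h.

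**Figure D4:**
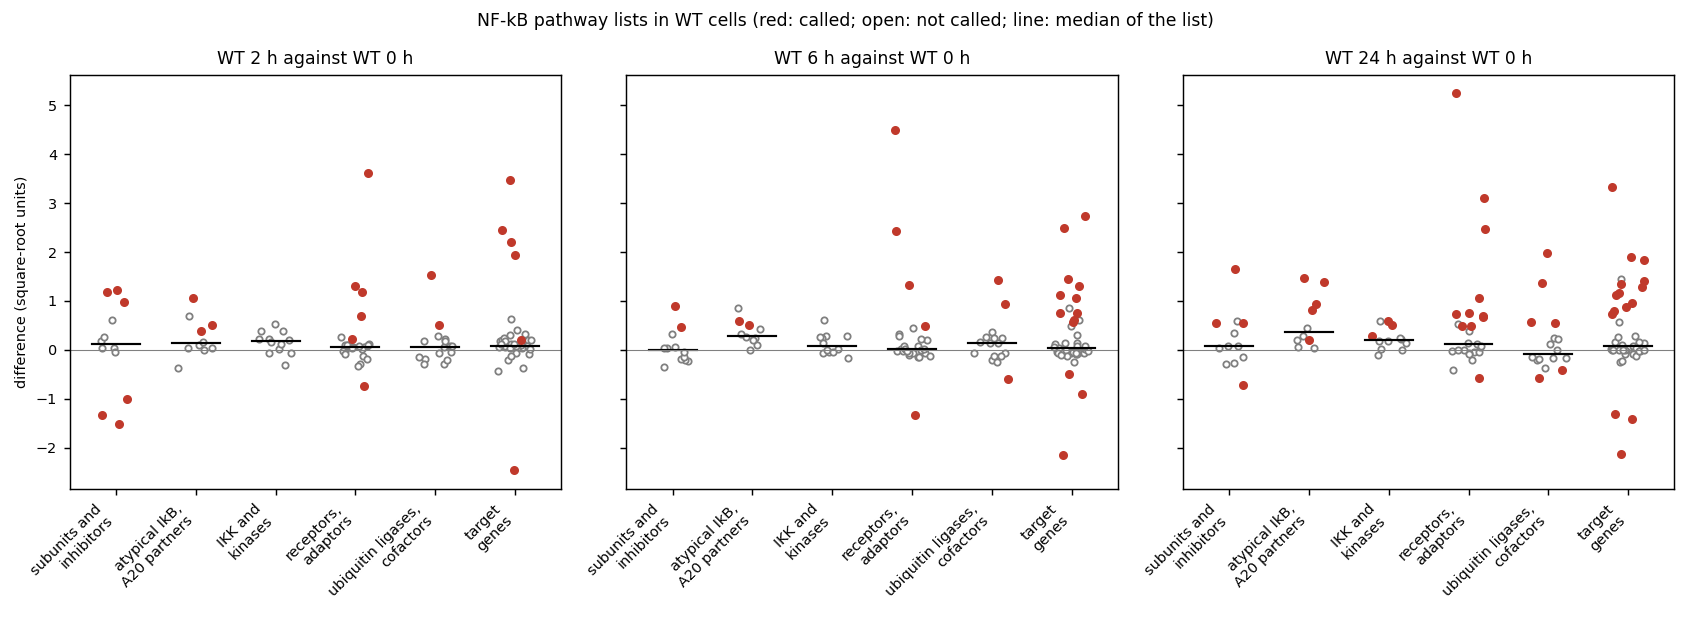
Difference from WT 0 h in square-root units (vertical axis, shared) for every measured gene of the members, by brightest or given probe set, and of the 5 pathway lists, at 2, 6 and 24 h. Each point is a probe set, red where it passed the threshold and open where it did not, and lines are medians of the list. The highest point among receptors and adaptors is Tnfrsf18, at 3.61, 4.49 and 5.24, and list medians lie between −0.074 and 0.37.

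In Kin- cells 0 genes of any of the 5 lists passed at 2, 6 or 24 h in limma, beside the 0% of all probe sets given above. Between untreated Kin- and WT cells 5 of the 106 measured list genes differed, or 4.72%, beside 3.01% of all probe sets, and they are named after their values were seen. Pdlim2, Prkcq and Cd28 were lower in Kin- cells, with differences of −2.34, −1.79 and −1.39, and Tax1bp1 and Cul1, a scaffold of ubiquitin ligases, were higher by 0.60 each.

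The genes whose level most resembled that of each member over the 26 arrays were found by Pearson's r, as a description over arrays that share groups and array sets. For Tnfaip3 they were Bcl2l11, which encodes the death-promoting protein Bim (r = 0.93), and Elovl5 (r = 0.91). For Nfkbia they were Desi2 (r = 0.91) and Nat9 (r = 0.89), and for Rel they were Epm2aip1 (r = 0.90) and Sfn (r = 0.89). Nfkbie was closest to Ccm2l and Bag1 (r = 0.89 and 0.87) and Rela to Gemin7 and Atox1 (r = 0.81 and 0.80). For Relb, Nfkbib and Nfkb2 the highest r was 0.72, 0.76 and 0.78, and for Nfkb2 this refers to the flat probe set 1429128_x_at.

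The labels were checked against known markers. Of 9 measured T-cell markers 8 lay above the median probe set, among them Cd3e, Cd3g, Cd3d and Zap70, and Cd5 was low at 2.95 to 3.91. No B-cell marker of 4 and no fibroblast marker of 5 lay above it, and of 5 myeloid markers Csf1r did, at 5.58 to 6.05. Lck was not analysed here. The summed T-cell markers ranged from 89.3 to 90.3 in WT cells at 0 h, 82.1 to 83.4 at 2 h, 81.5 to 84.7 at 6 h and 85.2 to 87.7 at 24 h. Over all Kin- groups they ranged from 91.1 to 91.9. The part of this in the results above was not tested. The sum mixes unlike members. Ptcra, Cd2, Thy1 and Lat had WT means of 9.15, 7.03, 12.87 and 12.14 at 0 h, and lowest arrays of 3.42, 4.51, 10.93 and 10.72. Cd3e, Cd3g, Cd3d and Zap70 had WT means of 9.98, 12.23, 12.51 and 10.86 at 0 h, and highest arrays of 11.50, 13.35, 13.38 and 12.14. At 24 h the summed myeloid markers were 23.2 to 25.5 in WT cells, against 22.3 to 22.7 at 0 h, and the B-cell markers 15.6 to 18.2, against 15.2 to 16.5, beside the late changes of Nfkbia and Tnfaip3. Their part was not tested. Over all arrays the widest range among the myeloid markers was that of Itgam, 4.27 to 7.42. Among the B-cell markers it was that of Blnk, 2.74 to 5.38. Whether the markers of a cell type rose together was not tested. Fibroblast markers summed to 14.6 to 16.5 on all arrays. The analog's known target Crem rose by 6.07, 5.55 and 5.71 in WT cells at 2, 6 and 24 h, and differed by 0.045, 0.12 and −0.14 in Kin- cells, with 0 calls. At 2 h in WT cells the early genes Fos and Nr4a1 rose by 5.78 and 4.14.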

How the data were processed

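Messenger RNA of WT and Kin- S49 cells was measured on 26 oligonucleotide arrays, per the labels. The values are scores the authors deposited in 1 table with a column per array; the sources used here do not give the method or the scale. The deposited scores run from 0.375 to 267, with column medians of 29.1 to 30.6 and 0 values missing or at or below 0. Their square root, with column medians of 5.40 to 5.53, was taken as a log scale, which is an assumption, and powers of 0.75 and 1 and log2 of the deposited scores were tried too. The number of arrays limits the precision, and the median SE for WT at 2 h against 0 h was 0.119.

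Probe sets were named from the platform annotation, where 20380 of 22626 have 1 symbol, 691 have several and 1555 have none, and 20351 matched a current gene table by gene ID. For 4956 genes with more than 1 probe set, the one with the highest mean stood for the gene in lists. Group means were fitted to all arrays with limma 3.58.1 in R 4.3.3 (lmFit and eBayes, no covariate, two-sided, Benjamini-Hochberg over all probe sets); the steps were tested on simulated data. The first component of the residuals held 35.5% of the variance and separated arrays 1 to 14 from arrays 16 to 47. Arrays of a group differed by a root mean square of 0.170 to 0.454, so no array was a copy of another of its group. No array number is shared between groups, but most arrays fall in runs of 4 consecutive numbers that hold 1 array of each time of 1 line; what a run stands for is not stated.

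Named genes are all members, and from each list the 2 largest rises and 2 largest falls that passed in each WT comparison with 0 h. The members and lists were chosen with earlier results of these data known. Promoter windows from RefSeq were searched for motifs with Python 3.11.15. Alternatives were scale, quantile normalization, a mean of at least 4, the array set, runs of array numbers as a random block (correlation 0.305), array weights, lines apart and leaving out each array.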

Additional observations from a re-analysis of the deposited data

Results flagged for a closer look

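For 7 results the response of WT cells differed from that of Kin- cells by a test of the difference itself. At 2 h these were Nfkb2 1425902_a_at at 1.21, the Nfkbia probe sets 1420088_at, 1448306_at and 1449731_s_at at −0.958, −1.47 and −1.23, and Tnfaip3 at 1.19, in square-root units. At 24 h they were Nfkb2 1425902_a_at at −0.637 and Tnfaip3 at 1.52. The values of Nfkb2 have opposite signs at 2 and 24 h. That at 24 h did not pass within arrays 16 to 47 (adjusted p = 0.139), and the brighter Nfkb2 probe set had no such call.

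On Nfkb2 1425902_a_at 1 untreated Kin- array read 7.06 and lay far from the other 3, which read 7.55 to 7.63. It was the only one past the limit among 24 groups of 4 arrays examined, and chance alone passes that limit in about 1 group in 20. Without that array the difference between the lines at 6 h for this probe set passed as well (adjusted p = 0.0198), which it did not over all arrays (adjusted p = 0.112).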

How the results depend on the processing

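For the probe sets of the members that passed, 463 values under other settings kept direction and call and 56 lost the call; for those that did not pass, 2175 stayed so, 77 gained a call and 1 reversed. The reversal was Relb in WT cells at 24 h, 0.447 in arrays 16 to 47 alone; the cause was not tested. Arrays 1 to 14 alone, with 1 treated array per group, called 1 of the 12 at 2 h and 1 at 6 h in WT cells, 0 from 2 to 6 h and 0 from 6 to 24 h, and 0 and 1 for the difference between the lines at 2 and 24 h. Arrays 16 to 47 alone called 8 from 2 to 6 h, 7 from 6 to 24 h, 1 between untreated lines and 5 for the difference between the lines at 24 h. Array weights called 7 at 24 h in WT cells, 7 from 2 to 6 h, 2 between untreated lines, and 3 and 4 for the difference between the lines at 6 and 24 h. The random block called 1 and 5 for that difference at 6 and 24 h, the term for the array set called 4 at 24 h, and fitting the lines apart called 1 at 6 h in WT cells. Leaving out an array gave 1 to 2 calls at 6 h and 2 to 5 at 24 h in WT cells, and 0 to 1 and 1 to 4 for the difference between the lines at 6 and 24 h. Over all probe sets the calls at 2 h in WT cells were 3249, and 6513 with array weights and 235 in arrays 1 to 14 alone; at 6 h 4441 and 719, at 24 h 6780 and 3183. From 2 to 6 h they were 2948, and 7573 with array weights, 5363 in arrays 16 to 47, 5271 with the random block, 5180 with the term and 1933 with lines apart, and from 6 to 24 h 4028 and 7322 with array weights, with 0 in arrays 1 to 14 for both. Between untreated lines they were 680, and 1685, 1249 and 1354 with array weights, arrays 16 to 47 and the term, and 0 in arrays 1 to 14. For the difference between the lines they were 1566 at 2 h, and 3323, 2428, 2616 and 2539 with array weights, arrays 16 to 47, the term and the random block, and 2444 at 6 h, and 4500, 3715 and 3667 with array weights, the term and the random block; arrays 1 to 14 called 1 at 2 h, 1 at 6 h and 722 at 24 h, against 4859. Of the WT calls at 2 h 1608 were higher, and 4177 with array weights; from 2 to 6 h 1441, and 2205 with array weights and 1835 in arrays 16 to 47; of the difference at 2 h 795, and 2093 and 1489. In Kin- cells no setting called more than 4 of all probe sets. Groups share no replicate number, so runs of consecutive array numbers were fitted as the random block above.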
